A study of Mus musculus with 6 samples.

Results

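Integrins are cell-surface adhesion receptors made of 1 alpha and 1 beta chain. The 10 genes described here were chosen by name: the leukocyte integrin genes Itgal, Itgam, Itgax, Itgb2, Itgb7 and Itga4 (6 genes), and the broadly expressed integrin genes Itga5, Itgav, Itgb1 and Itgb3 (4 genes). All 10 were among the 36047 genes joined to the data and among the 20094 genes tested. The tissue was the infarct area of hearts of C57BL6 mice aged 12 weeks, taken 48 h after ischemia/reperfusion (I/R). 3 mice received LGK974, a small-molecule inhibitor of Porcupine, which lipid-modifies Wnt proteins so that they can be secreted, and 3 received the solvent DMSO. All 6 mice had the injury, uninjured hearts were not analysed here, and the inhibitor was given by mouth, so that it could act in every organ.

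Integrin chains pair inside the cell, and a chain without its partner is poorly carried to the surface. The β2 chain (Itgb2, CD18) pairs with αL (Itgal, giving LFA-1), αM (Itgam, CD11b, giving Mac-1), αX (Itgax, CD11c) and αD (Itgad), and these receptors are used by leukocytes to bind endothelium, complement fragments and fibrinogen. The α4 chain (Itga4) pairs with β1 (Itgb1) to give VLA-4 or with β7 (Itgb7), and binds VCAM-1, fibronectin or MAdCAM-1. The α5 chain (Itga5) with β1 is the classical fibronectin receptor, and αv (Itgav) with β3 (Itgb3) or other beta chains binds vitronectin, osteopontin and latent TGF-β. In an infarct, β2 integrins are known from the entry of neutrophils and monocytes, and α5, αv and β1 from fibroblasts, endothelium and cardiomyocytes.

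In GRCm38, Itgb2 (ENSMUSG00000000290) lies on chromosome 10 from 77530252 to 77565708 and Itga4 (ENSMUSG00000027009) on chromosome 2 from 79255426 to 79333123, both on the plus strand. Itgal is on chromosome 7 (127296260 to 127335138, plus strand) and Itgb7 on chromosome 15 (102215995 to 102231944, minus strand). Of the broad genes, Itga5 is on chromosome 15 (103344286 to 103366763, minus strand), Itgav on chromosome 2 (83724397 to 83806916), Itgb1 on chromosome 8 (128685654 to 128733200) and Itgb3 on chromosome 11 (104608000 to 104670476), the last 3 on the plus strand. All 10 are annotated as protein-coding. Of the genes studied, Itgam and Itgax lie next to each other on mouse chromosome 7, with the start of Itgax 11056 bases after the end of Itgam. Itgam (ENSMUSG00000030786) extends from 128062640 to 128118491 and Itgax (ENSMUSG00000030789) from 128129547 to 128150657, both on the plus strand of GRCm38 and both protein-coding. Their promoters, from 250 bases before to 50 bases after the annotated start in RefSeq (GRCm38.p6), are shown because these neighbouring genes had some of the highest fold changes among the 10. Capitals mark GAGGAA or its reverse complement TTCCTC, a purine-rich core of the kind bound by the myeloid factor PU.1 (Spi1).
Itgam, chr7:128062390-128062689, plus strand: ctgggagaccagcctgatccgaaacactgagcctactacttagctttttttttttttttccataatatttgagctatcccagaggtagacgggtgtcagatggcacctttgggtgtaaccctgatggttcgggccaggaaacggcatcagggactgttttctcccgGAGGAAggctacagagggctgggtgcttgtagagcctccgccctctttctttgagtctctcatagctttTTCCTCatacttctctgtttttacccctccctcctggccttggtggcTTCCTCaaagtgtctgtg
Itgax, chr7:128129300-128129599, plus strand: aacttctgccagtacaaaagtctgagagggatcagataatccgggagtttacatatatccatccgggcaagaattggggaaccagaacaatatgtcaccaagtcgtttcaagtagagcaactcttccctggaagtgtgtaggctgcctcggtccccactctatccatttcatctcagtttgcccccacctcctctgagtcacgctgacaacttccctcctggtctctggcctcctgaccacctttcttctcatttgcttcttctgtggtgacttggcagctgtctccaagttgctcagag
The Itgam window held 3 matches and the Itgax window 0. Of the 7 member genes with a promoter in the table (Itgam, Itgax, Itgb7, Itga4, Itga5, Itgav and Itgb1), 5 held the motif on either strand, against 28.3% of all 32851 promoters of the same length. Among the 4 leukocyte genes of these, 2 held it. A match is a description of letters and not of binding.

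The libraries held between 41579787 and 80398211 estimated counts. Mitochondrial genes held 28.2 to 53.7% of them. DMSO replicate 1 stood apart from the rest: 1503 olfactory, vomeronasal and taste receptor genes, which are not typical of heart, were detected at 99.3% there and at 60.3 to 88.5% in the other 5 libraries. Their median level was 38.2 counts per kb there and 3.68 to 14.7 elsewhere. The markers of cardiomyocytes summed to 41421 to 64608 CPM (counts per 1000000 of the TMM-scaled library) in all 6 libraries, as heart tissue would have. These markers do not tell the infarct area from other heart muscle. Over the 20094 genes, the quasi-likelihood test of edgeR, adjusted by the Benjamini-Hochberg method, called 0 genes (0% of those tested) at an adjusted p under 0.05, and 2699 had an unadjusted p under 0.05. DESeq2 called 315. The median log2 fold change of all tested genes was −0.13, and it was −0.02 without DMSO replicate 1. In the edgeR fit of these 20094 genes, no integrin change passed the adjusted threshold. Integrin changes in that fit are therefore given as values with their errors. A fit with no filter on low counts, described below, did call Itgam, Itgax and Itgb2. The replicates are separate mice as far as the labels say. The edgeR p-values set the group difference against the spread between mice, which edgeR estimates partly from all genes.

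The leukocyte integrins Itgam, Itgax and Itgb2 were higher with LGK974 in all 3 mice than in any DMSO mouse, by about 1.93 to 2.56 times in the fitted values, with adjusted p = 0.368 for each in edgeR. Itgal and Itgb7 had positive but smaller and less certain differences, and Itga4 had a negative one that rested on DMSO replicate 1. Of the broad integrins, Itga5, Itgav and Itgb1 were also higher in every LGK974 mouse, by 1.31 to 1.57 times, and Itgb3 was nearly level. The gap was narrow for Itgav (78.9 against 76.1 CPM) and Itgb1 (500 against 497 CPM). Of all tested genes, 10.7% were higher with LGK974 without overlap. In bulk tissue, more cells of a type and more RNA per cell cannot be told apart.

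**Figure D1:**
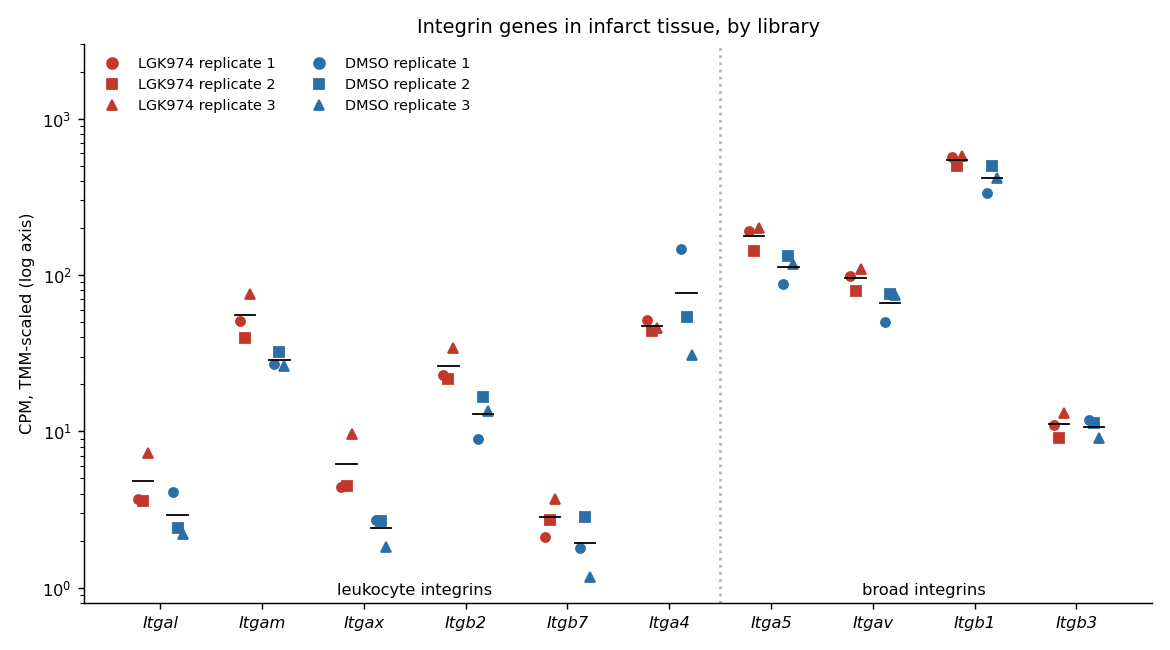
CPM (TMM-scaled, log axis) of the 10 integrin genes in each of the 3 LGK974 and 3 DMSO libraries. Each symbol is 1 mouse and each black line a group mean. Itgam, Itgax, Itgb2, Itga5, Itgav and Itgb1 do not overlap between the groups, beside 10.7% of all tested genes that are higher without overlap. Itga4 is at 146 CPM in DMSO replicate 1 and at 30.7 to 53.6 CPM in the other 5 libraries.

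Itgb2, the shared beta chain, was at 22.9, 21.6 and 34.2 CPM in LGK974 replicates 1 to 3 and at 8.92, 16.7 and 13.4 CPM in DMSO replicates 1 to 3. The groups did not overlap, and LGK974 replicate 3 was the highest library and DMSO replicate 1 the lowest. The mean was 26.2 ± 6.91 CPM (SD, n = 3) against 13.0 ± 3.88 CPM (SD, n = 3); the log2 difference was 1.01 (standard error 0.274, adjusted p = 0.368 in edgeR, 0.0592 in DESeq2). Without DMSO replicate 1 it was 0.82, and without LGK974 replicate 3 it was 0.84.

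Itgam, the αM chain of Mac-1 on monocytes, macrophages and neutrophils, was at 50.5, 39.6 and 75.5 CPM with LGK974 and at 27.0, 32.3 and 26.3 CPM with DMSO. Every LGK974 mouse was above every DMSO mouse, and the spread was larger with LGK974. The fitted log2 difference was 0.95 (standard error 0.248, adjusted p = 0.368 in edgeR and 0.0336 in DESeq2), and Itgam was the only member that DESeq2 called, beside 0.985% of its tested genes that were called higher. Exons of the annotated gene Gm49368 cover 68.7% of the exon bases of Itgam on the same strand, so that reads can be divided between both. Gm49368 held 0.759 to 6.20% of their summed counts, and the sum of both had a log2 fold change of 0.89. Without LGK974 replicate 3 the difference of Itgam was 0.73.

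Itgax, the αX chain used as a marker of dendritic cells and of some macrophages, was at 4.39, 4.46 and 9.60 CPM with LGK974 and at 2.71, 2.67 and 1.82 CPM with DMSO. The groups were apart, and LGK974 replicate 3 was the highest library. Its fitted log2 difference of 1.36 (standard error 0.387, adjusted p = 0.368 in edgeR and 0.0756 in DESeq2) was the highest of the 10 genes, and it was 0.95 without LGK974 replicate 3. Itgax shares 10.7% of its 31-base words with its neighbour Itgad, whose reads may be divided with it. Receptor-family background would equal 54.1% of the Itgax counts of DMSO replicate 1, and 21.9% of the Itgb2 counts.

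Itgal, the αL chain of LFA-1 on lymphocytes and other leukocytes, was at 3.68, 3.60 and 7.25 CPM with LGK974 and at 4.07, 2.42 and 2.21 CPM with DMSO. The groups overlapped through DMSO replicate 1. LGK974 exceeded DMSO by a log2 difference of 0.74 (standard error 0.397, adjusted p = 0.398 in edgeR), and it was 1.08 without DMSO replicate 1 and 0.41 without LGK974 replicate 3. The level of the receptor families above, scaled to the mean effective length of Itgal transcripts, equals 79.8% of its counts in that library. With counts scaled from TPM, the difference turned to −0.22.

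Itgb7, the beta chain of lymphocytes that home to gut, was at 2.11, 2.72 and 3.68 CPM with LGK974 and at 1.78, 2.83 and 1.18 CPM with DMSO. The groups overlapped. Its log2 fold change was 0.55 (standard error 0.435, adjusted p = 0.529 in edgeR), with a 95% interval from −0.46 to 1.56. Receptor-family background would equal 62.5% of its counts in DMSO replicate 1.

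Itga4, the α4 chain of VLA-4, was at 51.8, 43.6 and 46.0 CPM with LGK974 and at 146, 53.6 and 30.7 CPM with DMSO. DMSO replicate 1 was well above the other 5 libraries, which lay between 30.7 and 53.6 CPM. This gave a log2 fold change equal to −0.70 (standard error 0.499, adjusted p = 0.492 in edgeR), and it turned to 0.19 (standard error 0.228) without that library. The receptor-family background corresponds to 5.84% of the Itga4 counts of DMSO replicate 1. T cell markers were also high there, at a sum of 53.6 CPM against 19.6 to 23.6 CPM elsewhere. The part of receptor-family background in that sum was not tested. The neutrophil receptor gene Cxcr2 was also high, at 50.3 CPM there and 12.0 to 17.2 CPM elsewhere. Whether these have a part in the Itga4 value was not tested. Exons of Cerkl on the opposite strand overlap 8.04% of the Itga4 exon bases.

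Among the broad integrins, Itga5 was at 192, 142 and 199 CPM with LGK974 and at 87.6, 133 and 118 CPM with DMSO. The groups were apart, by 142 against 133 CPM at the nearest. Itga5 differed by 0.65 in log2 (standard error 0.224, adjusted p = 0.368 in edgeR), and by 0.52 without DMSO replicate 1.

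Itgav was at 99.1, 78.9 and 109 CPM with LGK974 and at 49.9, 76.1 and 74.1 CPM with DMSO. The groups were apart, narrowly. Itgav differed by 0.52 in log2 (standard error 0.219, adjusted p = 0.368 in edgeR), and it was 0.37 without DMSO replicate 1.

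Itgb1, the beta chain shared by Itga4, Itga5 and Itgav, was at 566, 500 and 575 CPM with LGK974 and at 332, 497 and 419 CPM with DMSO. The groups were apart by only 500 against 497 CPM. Itgb1 differed by 0.39 in log2 (standard error 0.222, adjusted p = 0.413 in edgeR), and by 0.28 without DMSO replicate 1.

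Itgb3, the β3 chain that pairs with αv and, on platelets, with αIIb, was at 10.99, 9.07 and 13.2 CPM with LGK974 and at 11.8, 11.3 and 9.04 CPM with DMSO. The groups overlapped. Itgb3 differed by 0.05 in log2 (standard error 0.205, adjusted p = 0.924 in edgeR), with a 95% interval from −0.43 to 0.52, which does not show that the groups act alike. The receptor-family background would equal 45.3% of its counts in DMSO replicate 1.

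Of the 6 leukocyte integrins, 3 were higher at an unadjusted p under 0.05 and 0 lower, and of the 4 broad ones 2 were higher and 0 lower, beside 6.26% of all tested genes higher and 7.18% lower. The groups did not overlap, with LGK974 higher, in 3 of the 6 leukocyte and 3 of the 4 broad genes, beside 10.7% of tested genes higher and 7.27% lower. The median log2 fold change was 0.85 for the leukocyte and 0.46 for the broad genes, against −0.13 for all tested genes. Without DMSO replicate 1, 4 of the 6 leukocyte genes and 1 of the 4 broad genes were higher at an unadjusted p under 0.05, beside 7.12% of the tested genes. With no filter on low counts, edgeR called 0.89% of 34257 genes higher at an adjusted p under 0.05, among them Itgam, Itgax and Itgb2, whose adjusted p there were 0.0167, 0.00423 and 0.00702. In that fit the median log2 fold change of genes shared with the main fit shifted by 0.16.

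**Figure D2:**
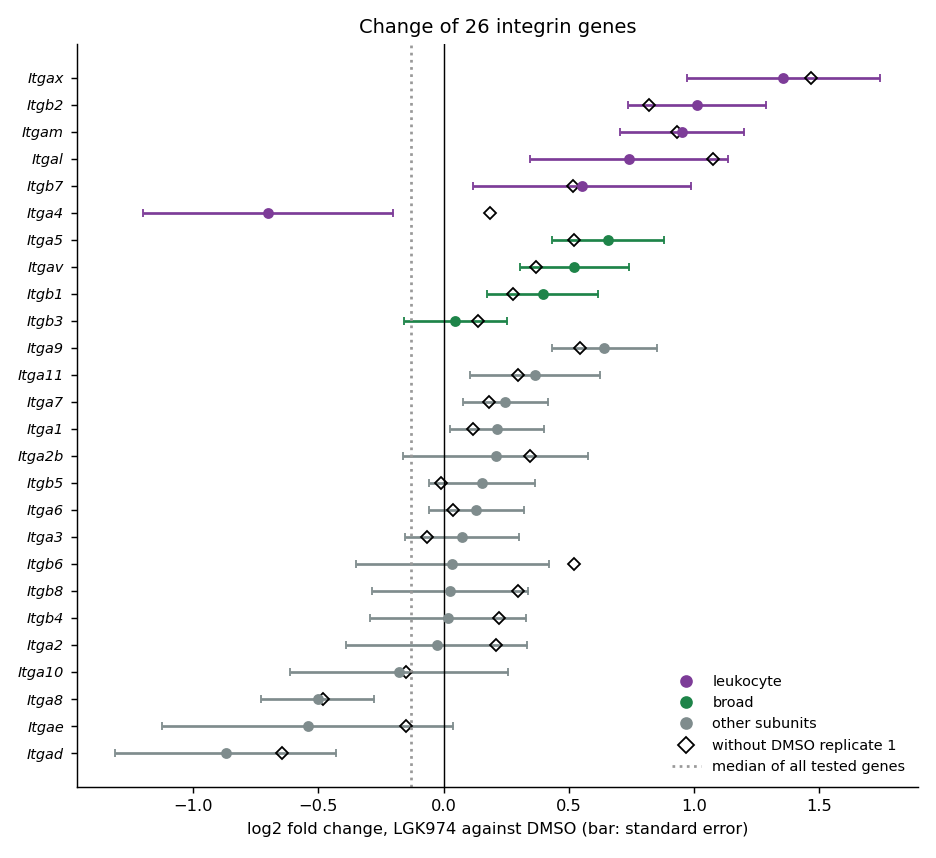
Log2 fold change with its standard error for all 26 integrin genes (leukocyte, broad and other subunits). Filled circles are all 6 libraries and open diamonds leave out DMSO replicate 1. Itgax, Itgb2 and Itgam stand highest (1.36, 1.01 and 0.95) and Itga4 moves from −0.70 to 0.19 without that library.

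Per library, the mean log2 CPM of the leukocyte genes minus that of the broad genes was −3.20, −2.95 and −2.68 with LGK974 and −2.76, −3.26 and −3.62 with DMSO. The groups overlapped, since DMSO replicate 1 was among the highest, and the difference was 0.27. With Itga4 left out it was 0.49, and without DMSO replicate 1 it was 0.50. It was 0.07 without DMSO replicate 3 and 0.14 without LGK974 replicate 3. It is given as a description, with no test.

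Levels between genes were compared per length, as TPM of transcripts of 2000 bases or more. This was done since shorter annotated transcripts held up to 88.1% of the TPM of Itgal in 1 library. The TPM were not TMM-scaled between libraries, so the means below give an order within each group and not a change between groups. The spread was wide with LGK974, as for Itgam at 11.1, 6.22 and 27.1 TPM in replicates 1 to 3. In LGK974 hearts the order was Itgb1 (165 TPM), Itga5 (47.6), Itgav (15.8), Itgam (14.8), Itgb2 (11.4), Itga4 (5.70), Itgb3 (2.34), Itgax (1.89), Itgal (1.20) and Itgb7 (1.16). Among neighbours in this order, only Itgb1 and Itga5 had ranges over the libraries that did not overlap. Within each of the 3 libraries, every gene was above the next, with these exceptions. Itgav was above Itgam, Itgb3 above Itgax and Itgal above Itgb7 in 2 libraries. In DMSO hearts the order was Itgb1 (94.8 TPM), Itga5 (22.8), Itgav (8.33), Itga4 (6.26), Itgam (5.38), Itgb2 (4.25), Itgb3 (1.59), Itgb7 (0.560), Itgax (0.491) and Itgal (0.455). There, the neighbours Itgb1 and Itga5, Itga5 and Itgav, Itgb2 and Itgb3, and Itgb3 and Itgb7 did not overlap. Within libraries the order again held in all 3, with these exceptions. Itgav was above Itga4, Itgb7 above Itgax and Itgax above Itgal in 2 libraries, and Itga4 above Itgam in 1.

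The ratio of Itgb2 to Itgb1 within a library does not depend on library scaling. On TPM of transcripts of 2000 bases or more it was 0.0565, 0.0588 and 0.0802 with LGK974 and 0.0396, 0.0485 and 0.0436 with DMSO. All 3 LGK974 values lay above the DMSO values. The difference in log2 was 0.56 (exact two-sided permutation p = 0.1, the smallest that 3 against 3 can give). On TPM of all transcripts, the planned measure, it was 0.57 (exact permutation p = 0.2), and there the groups overlapped. The limit of 2000 bases was chosen after seeing the data.

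The sum of the αL, αM, αX and αD chains over Itgb2 was 1.52, 1.37 and 1.66 with LGK974 and 2.21, 1.35 and 1.42 with DMSO, on the same transcripts. DMSO replicate 1 was highest and the rest lay close together. The difference in log2 was −0.10 (exact permutation p = 0.9). On TPM of all transcripts, the planned measure, it was −0.66 (exact permutation p = 0.1) with no overlap. Short transcripts hold 96.9 to 99.3% of Itgad TPM there. The ratio of Itgb2 to Ptprc, the pan-leukocyte marker CD45, was 0.868, 0.802 and 0.924 with LGK974 and 0.479, 0.910 and 0.926 with DMSO. DMSO replicate 1 was alone in being low. The difference in log2 was 0.22 (exact permutation p = 0.9). On TPM of all transcripts it was 0.13, and −0.24 without DMSO replicate 1.

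**Figure D3:**
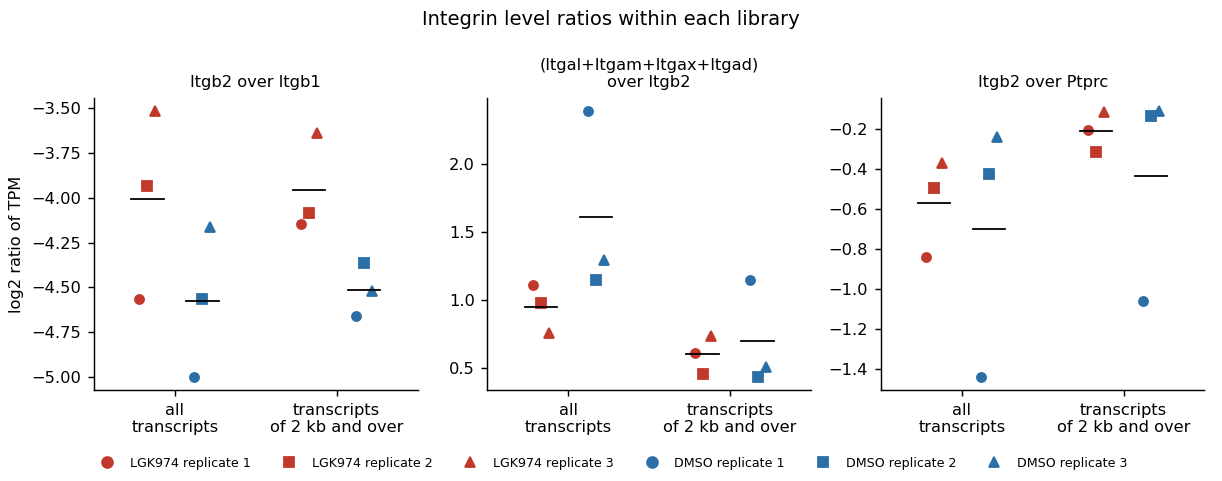
Log2 ratio of TPM within each library for Itgb2 over Itgb1, the β2 alpha chains over Itgb2 and Itgb2 over Ptprc. Left columns use all transcripts, as planned, and right columns those of 2000 bases or more, a limit chosen after seeing the data. Itgb2 over Itgb1 is higher in all LGK974 libraries on the right (−4.15 to −3.64 against −4.66 to −4.37), and DMSO replicate 1 stands apart in the other ratios.

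Among the β2 partners, on the same transcripts, Itgam made up 77.2 to 85.6% of the summed TPM in every library. Itgax was 8.62 to 11.4% with LGK974 and 6.83 to 8.01% with DMSO, with no overlap. Itgal was 5.49 to 10.96% over all libraries. Itgad was 0.115 to 1.41% with LGK974 and 2.29 to 4.08% with DMSO, with no overlap, in a gene with 96.9 to 99.3% of its TPM in shorter transcripts.

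**Figure D4:**
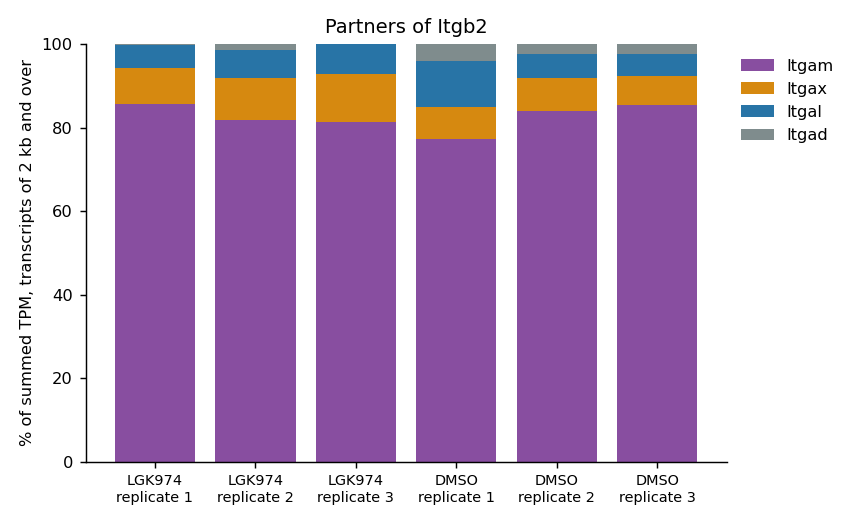
Share of the TPM of the 4 alpha chains that pair with Itgb2, by library, from transcripts of 2000 bases or more. Itgam fills 77.2 to 85.6% of each bar, and Itgax 8.62 to 11.4% with LGK974 against 6.83 to 8.01% with DMSO.

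The genes whose log2 CPM over the 6 libraries was most like that of Itgb2, among 8031 genes with a mean of 10 CPM or more, were Sbno2 (Pearson r = 0.999), Fam129b, Cand1, H2-D1 and Etv6 (all 0.997 or more). For Itgb1 they were Cct5, Hist2h2ac, F2r, Prep and Stab1 (r from 0.993 to 0.996). With 6 libraries that share 1 treatment and 1 library that stands apart, such values are a description.

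Of the 16 other integrin subunits, all of which passed the filter, 1 was higher and 0 lower at an unadjusted p under 0.05, which is near the 6.26% of all tested genes that were higher, and the median was 0.05. Itga9, a receptor chain for tenascin and osteopontin, was at 34.5, 34.9 and 48.9 CPM with LGK974 and at 21.1, 30.7 and 24.1 CPM with DMSO. It was the higher one, with groups that did not overlap and 0.64 as its log2 fold change (standard error 0.209). Itga8 was at −0.50 (standard error 0.225), with no overlap, and Itgad at −0.87 (standard error 0.442), with overlap.

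Of the 18 genes for integrin activation and tail binding, 6 were higher and 1 lower at an unadjusted p under 0.05, beside 6.26% and 7.18% of all tested genes, with a median of 0.42. Apbb1ip (RIAM, a Rap1 effector that recruits talin) was at 45.6, 38.6 and 44.4 CPM with LGK974 and at 25.0, 28.6 and 21.8 CPM with DMSO. These groups were well apart, with 0.77 as log2 fold change (standard error 0.161). The adaptors Skap2 and Fyb (ADAP) had log2 fold changes of 0.70 and 0.87. Fermt3 (kindlin-3), which activates β2 integrins in blood cells, had one of 0.85, and Tln1 (talin-1) one of 0.55 without reaching an unadjusted p under 0.05. Fermt3 and Tln1 were named after their values were seen. Rasgrp2, an activator of Rap1 in platelets and lymphocytes, was the lower one, at −0.66, and was also named after its value was seen. All of the 18 genes downstream (kinases, adaptors and actin linkage) had positive fold changes, beside 40.5% of all tested genes, and 7 of them had an unadjusted p under 0.05, beside 6.26% of all tested genes. Their median was 0.54. Without DMSO replicate 1, 16 were positive. Again 7 were higher at an unadjusted p under 0.05, beside 7.12% of all genes tested in that fit. The share of all tested genes that were positive was not counted there. The exchange factor Vav1 was at 17.7, 12.4 and 24.6 CPM with LGK974 and at 10.03, 11.4 and 8.60 CPM with DMSO. Its groups did not overlap, and its log2 fold change was 0.87. The kinase Lyn had one of 0.62. Ptk2 (focal adhesion kinase), named after its value was seen, had one of 0.05, with overlap.

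Of the 20 ligands and counter-receptors, 17 were tested and Madcam1, Fga and Fgb were not. At an unadjusted p under 0.05, 8 were higher and 0 lower, beside 6.26% and 7.18% of all tested genes, with a median of 0.49. Fn1 (fibronectin) was at 1.77, Tnc (tenascin C) at 1.73 and Spp1 (osteopontin) at 1.64. Tnc was at 347, 259 and 847 CPM with LGK974 and at 115, 168 and 155 CPM with DMSO, and its log2 fold change was 1.12 without LGK974 replicate 3. Spp1 was at 305, 222 and 410 CPM with LGK974 and at 73.6, 124 and 103 CPM with DMSO, with the groups well apart. Fn1 was at 848, 587 and 1705 CPM with LGK974 and at 233, 340 and 346 CPM with DMSO, with LGK974 replicate 3 the highest, and its log2 fold change was 1.30 without that library.

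**Figure D5:**
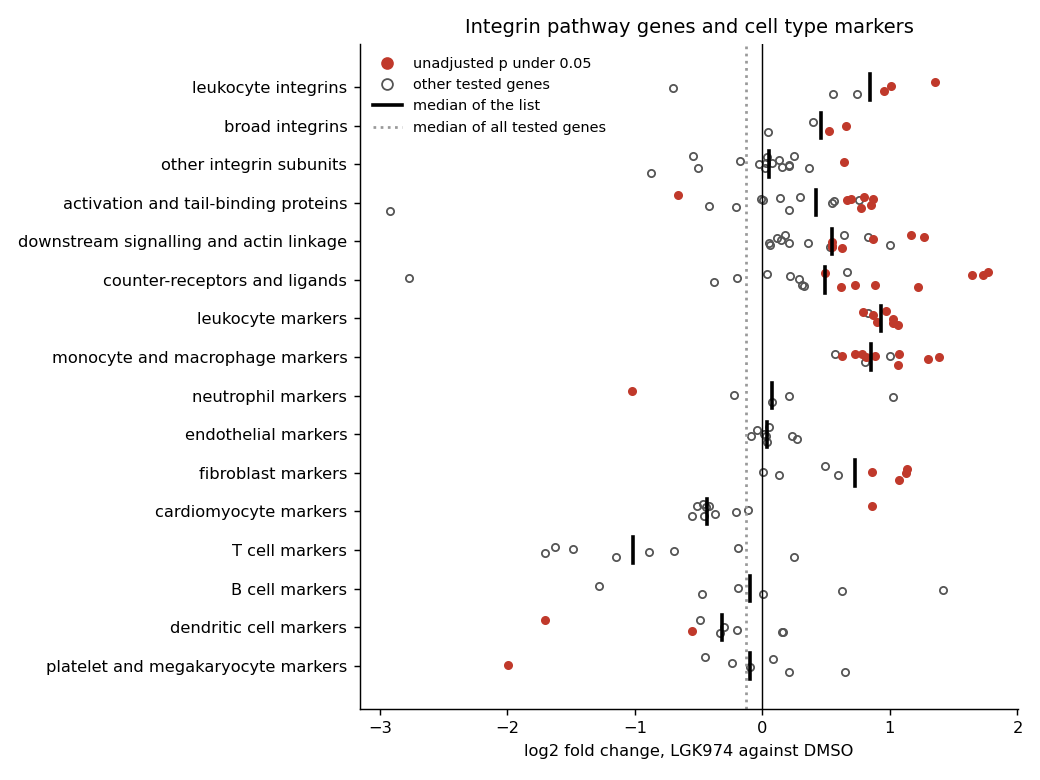
Log2 fold change of each tested gene in the integrin, pathway and cell marker lists. Filled points have an unadjusted p under 0.05, bars mark list medians and the dotted line marks the median of all tested genes, −0.13. Leukocyte (0.93), monocyte and macrophage (0.85) and fibroblast (0.73) markers have the highest medians next to the leukocyte integrins (0.85).

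Markers of leukocytes and macrophages were higher with LGK974, as were Itgam, Itgax and Itgb2 and the broad genes Itga5, Itgav and Itgb1. In log2 CPM over the 6 libraries, Itgb2 correlated with Ptprc at r = 0.83. With Itga5, Itgav and Itgb1 it correlated at r = 0.96, 0.95 and 0.95. Over all tested genes, 40.5% were positive, 6.26% were higher at an unadjusted p under 0.05, and 7.12% were so without DMSO replicate 1. All 8 leukocyte markers were positive, 7 at an unadjusted p under 0.05 (also 7 without DMSO replicate 1), with summed levels of 149 to 210 CPM with LGK974 and 78.1 to 109 CPM with DMSO, and a median of 0.93. All 12 monocyte and macrophage markers were positive, 9 at an unadjusted p under 0.05 (11 without DMSO replicate 1), with sums of 590 to 678 CPM against 249 to 395 CPM and a median of 0.85. Cd53, Laptm5 and Spi1 were at 1.07, 1.03 and 1.03, and Lyz2, Cd68 and Adgre1 at 1.30, 1.06 and 0.88. Of the 10 neutrophil markers, 5 were tested (Retnlg, Ly6g, Camp, Ltf and Ngp were not), 3 of them with positive fold changes. Their sums were 32.9 to 46.1 CPM with LGK974 and 40.4 to 81.2 CPM with DMSO, where the highest sum, in DMSO replicate 1, held 50.3 CPM of Cxcr2. T cell markers (8 tested) had a median of −1.02, and −0.21 without DMSO replicate 1. All 8 fibroblast markers were positive, 4 at an unadjusted p under 0.05, with sums of 3141 to 5355 CPM against 1578 to 2313 CPM. Endothelial markers (8) had a median of 0.03, and cardiomyocyte markers (10) one of −0.43. The part of the cell mixture in the integrin values was not tested.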

How the data were processed

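RNA from the infarct area of 6 mice was sequenced, 3 per group as given by the sample labels. The study's methods state ribosomal RNA depletion, TrueSeq RNA Access libraries and quantification with Kallisto on Ensembl transcripts of GRCm38 (version not given in the sources used here). For 118489 transcripts per library the authors deposited TPM and the estimated count. Kallisto divides a read that fits several transcripts between them, so values of overlapping or near-identical genes are uncertain.

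Transcripts were joined to GENCODE genes (98.6% matched), and their estimated counts were added up within genes, then rounded. Genes reaching 10 counts in 3 or more libraries were tested with edgeR 4.0.16 in R 4.3.3 (quasi-likelihood test, TMM scaling, treatment as the only factor, Benjamini-Hochberg adjustment over all tested genes, threshold 0.05). The test was tested on simulated data. CPM are counts divided by the TMM-scaled library size, times 1000000. The deposited TPM were used for ratios within a library, with exact two-sided permutation tests over the 20 splits of the mice, whose smallest p is 0.1. Receptor-family background is the median count per kb of olfactory, vomeronasal and taste receptor genes in the same library, times the gene's TPM-weighted mean effective length. The alternatives were DESeq2 1.42.0, its size factors, other filters, a replicate block, mitochondrial genes left out, protein-coding genes, counts scaled from TPM, background subtraction and each library left out. Leaving out short transcripts or Itga4, and adding Gm49368 to Itgam, were chosen after seeing the data.

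The named genes were the 10 members, the 3 genes with the smallest p in each list, and the 5 genes most like Itgb2 or Itgb1. A gene that this rule names in the downstream list is not reported here. Members and lists were chosen with earlier results of these data known. With 3 mice a group, precision is low. Promoters came from RefSeq. Tables were made with pandas 2.3.3 and SciPy 1.17.1 under Python 3.11.15, and figures with matplotlib 3.10.9.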

Additional observations from a re-analysis of the deposited data

How the results depend on the processing

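At an adjusted p under 0.05, DESeq2 called 315 genes and unfiltered edgeR 1206, against 0 in the reported fit. Leaving out 1 library gave 0 to 2 genes, the 2 without DMSO replicate 1. DESeq2 also called Itgam, and the fit with no filter Itgam, Itgax and Itgb2. The count of leukocyte integrins higher at an unadjusted p under 0.05 was 2 to 4 over all alternatives. The share of all tested genes was 6.26% in the reported fit and 7.12% without DMSO replicate 1. For the other alternatives, the replicate block among them, that share was not counted. Differences that turned sign were Itgal (−0.22 with counts scaled from TPM), Itga4 (0.19 without DMSO replicate 1, range −0.94 to 0.19 over left-out libraries), Itgb3 (−0.012 with a filter of at least 50 counts, range −0.021 to 0.24 over left-out libraries), Csf3r (0.065 with counts scaled from TPM), Ms4a1 (range −1.74 to 0.25), Gp1ba (−0.45 to 0.023) and Emcn (−0.063 less background, range −0.10 to 0.34). On TPM of all transcripts, the Itgb2 to Ptprc difference ranged from −0.24 to 0.36 over left-out libraries. On the same TPM and libraries left out, the Itgb2 to Itgb1 difference ranged from 0.33 to 0.85 and the alpha chain to Itgb2 difference from −0.90 to −0.27 (outside this range, −0.21 on estimated counts and −0.10 on transcripts of 2000 bases or more, for which no library was left out). Over left-out libraries, the leukocyte minus broad difference ranged from 0.07 (without DMSO replicate 3) to 0.50 (without DMSO replicate 1). It was 0.53 with background subtraction. The causes were not tested. The labels do not say whether the replicate numbers pair the mice. Same-numbered libraries correlated in their deviations at 0.47, −0.05 and 0.39, and differently numbered ones at −0.52 to 0.1. These values cannot settle the pairing, and the main fit did not use it. With the replicate block edgeR called 0 genes, 3 leukocyte integrins had an unadjusted p under 0.05, and the Itgb2 to Itgb1 difference was 0.57 (exact permutation p = 0.25, the smallest that 3 pairs allow). Depth limits Itgb7, Itgal and Itgax most, at 48 to 613 counts per library.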

Other observations

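Gene groups that share cells with the integrins but were not described above were given by their values. Of the 8 dendritic cell markers, 2 were lower at an unadjusted p under 0.05, beside 7.18% of all tested genes: Clec9a (log2 fold change −0.55) and Siglech (−1.70), while Zbtb46 was at 0.15. The median was −0.32. Without DMSO replicate 1, 1 was lower, 5 were positive and the median was 0.16, against −0.02 for all tested genes. The shares of all tested genes that were lower or positive in that fit were not counted. Clec9a was at 5.01, 5.36 and 4.57 CPM with LGK974 and at 7.49, 6.97 and 7.47 CPM with DMSO, with no overlap, whereas Itgax, which dendritic cells also carry, was higher with LGK974. Siglech was at 4.50 CPM in DMSO replicate 1 and at 0.523 to 1.92 CPM in the other libraries, and its log2 fold change was −0.81 without DMSO replicate 1.

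Among the platelet markers, 7 were tested and Treml1 was not, and Gp6 (a collagen receptor) was at 0.801, 0.858 and 0.407 CPM with LGK974 and at 4.60, 2.56 and 1.11 CPM with DMSO, a log2 fold change of −2.00, or −1.38 without DMSO replicate 1. The receptor-family median was 13.7, 5.39 and 3.68 counts per kb in LGK974 replicates 1 to 3. It was 38.2, 14.7 and 3.78 counts per kb in DMSO replicates 1 to 3. Its part in these low Gp6 values was not tested. Pf4 was at 0.65 and Gp1ba at −0.24. Of the B cell markers (6 tested), none was called at an unadjusted p under 0.05 by edgeR, with a median of −0.10. Blk was at 0.62, Cd79b at 1.41 and Ms4a1 at −1.28. The T cell genes Cd8a, Cd3e and Cd3g were at −1.63, −1.71 and −1.49, and at −0.24, −0.49 and −0.18 without DMSO replicate 1. The neutrophil genes Cxcr2, Mmp8 and Csf3r were at −1.03, 1.02 and −0.22, and at −0.28, 1.63 and −0.19 without DMSO replicate 1. Kdr, Egfl7 and Emcn of the endothelial list were at 0.28, 0.23 and 0.05. Mfap5, Col3a1 and Col1a2 of the fibroblast list were at 0.86, 1.14 and 1.07. Actc1 was the 1 cardiomyocyte marker above 0, at 0.86, and Myl2 and Myl3 were at −0.51 and −0.56.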
